A study of Saccharomyces cerevisiae with 6 samples.

Results

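The comparison described here sets 2% galactose against 2% glucose in budding yeast, in 4 mRNA-Seq libraries of the 6 in the series, 2 for each sugar. The 4 libraries were chosen by their labels, as the galactose and 2% glucose cultures of both plasmids, a rule that uses no measured value. Earlier results of these data were known when the comparison was chosen. All cells were BY4741, a laboratory haploid of mating type a, and grew in synthetic medium without uracil, which selects for the *URA3* marker of the plasmid. Control cells carried the empty pCM190 vector, and the others carried pCM190 with the *PPZ1* coding region behind a tetO7 promoter that doxycycline keeps silent. Doxycycline at 100 µg/ml was washed out of both, the cultures grew for 3.5 h from an OD600 of 0.2 to 0.55, and aliquots were filtered and kept for 1 h in fresh medium with one or the other sugar. The groups are therefore control cells in 2% glucose, control cells in 2% galactose, *PPZ1* cells in 2% glucose and *PPZ1* cells in 2% galactose, with 1 library in each. Both sugar aliquots of a plasmid came from 1 starter culture, and no condition was repeated. The galactose cultures had been without glucose for 1 h only, so the values describe the early phase after the change of sugar.

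Reads in coding features numbered 5644263 and 4921218 in the glucose libraries of control and *PPZ1* cells, and 3673635 and 3932576 in the galactose libraries. Levels are given as CPM, the deposited scaled value divided by the largest library's total and put on the usual CPM scale, so that 10 CPM stands for 37.1 to 57.1 reads. Of 6687 features, 5397 reached a mean of 10 CPM in the 4 libraries and were compared, and 1290 were below. Markers of the strain were mostly as the labels have it. Of the a-cell genes, *STE2*, *STE6*, *BAR1*, *MFA1*, *MFA2* and *ASG7* stood between 11.1 and 592 CPM in every library. Of the alpha-cell genes, *STE3* stood at 6.73 to 9.28 CPM, *SAG1* at 27.0 to 35.1 CPM, and both alpha-factor genes at 2.45 CPM or less. *MET17* and *LEU2*, deleted in this strain, had 0 reads in all 4 libraries. *HIS3*, which the strain carries as a partial deletion, stood at 22.9 to 62.5 CPM, and its counted region overlaps YOR203W.

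Glucose is the preferred carbon source of yeast. While it is plentiful, the Mig1 repressor and its partners keep silent the genes for other sugars, for respiration and for gluconeogenesis, and signalling through protein kinase A and TOR keeps ribosome production high. When glucose is withdrawn, the Snf1 kinase lifts that repression, the activators Cat8, Adr1 and Hap4 turn on respiratory and gluconeogenic genes, and Msn2 and Msn4 turn on stress genes. Galactose needs its own set of genes, the *GAL* genes, which the activator Gal4 switches on once the sensor Gal3 has bound galactose and drawn off the inhibitor Gal80. Ppz1 is a protein phosphatase whose overexpression slows growth, and Hal3 (*SIS2* in the files) and Vhs3 inhibit it.

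The upstream stretches printed next show the letters by which the main groups of changing genes are commonly recognised. They were read from the R64 reference genome, in which the printed genes have the same start and end as in the deposited table. Each stretch lies more than 100 bases before the start codon, is written 5′ to 3′ along the strand of its gene, and has in capitals the letters of the element it is shown for. Searched on both strands in the 500 bases before each start codon were the Gal4 pattern (CGG and CCG with 11 bases between), the stress response element AGGGG, the MCB element ACGCGT of genes of the G1/S transition, the PAC element GCGATGAG and the RRPE element AAAAATTTT of ribosome biogenesis genes, and CCCCGC, a core of Mig1 sites. None of these letter strings contains another, but neighbouring genes that diverge share a window. For the Gal4 pattern, shown for the *GAL* genes, the half-sites are in capitals. Stretches are printed only for genes with a match. Also looked up, and without a match in their windows, were *FUR4* for the Gal4 pattern and *PCL1* and *CLN1* for MCB. The same held for *RPA12* and *NOP1* for PAC, and for *HXK1*, *MTH1* and *JEN1* for the Mig1 core. The stretch of *GAL2* also holds AGGGG and that of *NOG1* also AAAAATTTT, both left in lower case there.
*GAL1* (read on the other strand it is also the window of *GAL10*), chrII:278553-278636, plus strand: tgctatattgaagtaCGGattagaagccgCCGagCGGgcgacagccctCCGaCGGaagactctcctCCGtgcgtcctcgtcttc
*GAL7*, chrII:275688-275734, minus strand: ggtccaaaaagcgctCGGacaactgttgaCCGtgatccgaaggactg
*GAL2*, chrXII:289781-289915, plus strand: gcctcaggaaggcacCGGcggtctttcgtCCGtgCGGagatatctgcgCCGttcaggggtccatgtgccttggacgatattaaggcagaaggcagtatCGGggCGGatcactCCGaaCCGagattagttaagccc
*GAL80*, chrXIII:171407-171453, plus strand: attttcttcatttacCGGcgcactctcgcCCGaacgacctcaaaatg
*HSP12*, stress element, chrVI:106806-106898, plus strand: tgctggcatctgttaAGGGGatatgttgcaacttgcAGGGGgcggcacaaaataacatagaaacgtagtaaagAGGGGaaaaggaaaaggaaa
*CTT1*, stress element, chrVII:654241-654290, plus strand: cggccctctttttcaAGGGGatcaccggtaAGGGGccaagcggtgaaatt
*RNR1*, MCB element, chrV:298450-298528, plus strand: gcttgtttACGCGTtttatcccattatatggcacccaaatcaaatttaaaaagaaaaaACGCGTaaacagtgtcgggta
*CLB6*, MCB element, chrVII:706858-706919, minus strand: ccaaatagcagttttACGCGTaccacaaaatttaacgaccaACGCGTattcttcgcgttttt
*NOG1*, PAC element, chrXVI:370820-370857, plus strand: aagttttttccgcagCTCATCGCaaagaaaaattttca
*RPC19*, PAC element, chrXIV:412627-412664, plus strand: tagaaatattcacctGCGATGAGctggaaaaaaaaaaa
*CAT8*, Mig1 core, chrXIII:831540-831575, minus strand: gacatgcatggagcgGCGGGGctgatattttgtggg

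Most genes measured changed, 81.6% of those tested. Genes were tested with limma on log2(CPM + 1), with plasmid as a block and a Benjamini-Hochberg adjusted p of at most 0.05, and 2186 genes (40.5% of those tested) rose in galactose while 2217 (41.1%) fell. A change of at least 2-fold in the same direction in both plasmids was seen for 1029 genes upwards (19.1%) and 966 genes downwards (17.9%). The upper range was wider than the lower. At least 16-fold higher in both plasmids were 106 genes and at least 64-fold higher 21 genes, whereas 106 genes were at least 4-fold lower and 9 at least 8-fold lower. In reads, the 1029 genes took 5.98% and 6.38% of the glucose libraries (control and *PPZ1* cells) and 38.6% and 37.6% of the galactose libraries. The 966 genes took 42.7% and 41.0% in glucose and 12.8% and 13.3% in galactose. The exact 95% binomial intervals of these shares reach at most 0.05 percentage points to either side and cover counting error only. The fit has 1 residual degree of freedom, and its estimated prior degrees of freedom were infinite, so each standard error follows the trend of spread with level (0.10 to 0.27 for the genes named) and reflects how far the plasmids' responses depart from each other, not variation between cultures. With 2 pairs an exact sign-flip permutation test of a single gene cannot go below a two-sided p of 0.5. With 1 of the 4 libraries left out, in an additive fit that keeps the 2 low-glucose libraries, the genes that rose numbered 1130 without control cells in glucose, 1102 without control cells in galactose, 1361 without *PPZ1* cells in glucose and 1167 without *PPZ1* cells in galactose, and the genes that fell numbered 1303, 1091, 1132 and 1157.

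**Figure D1:**
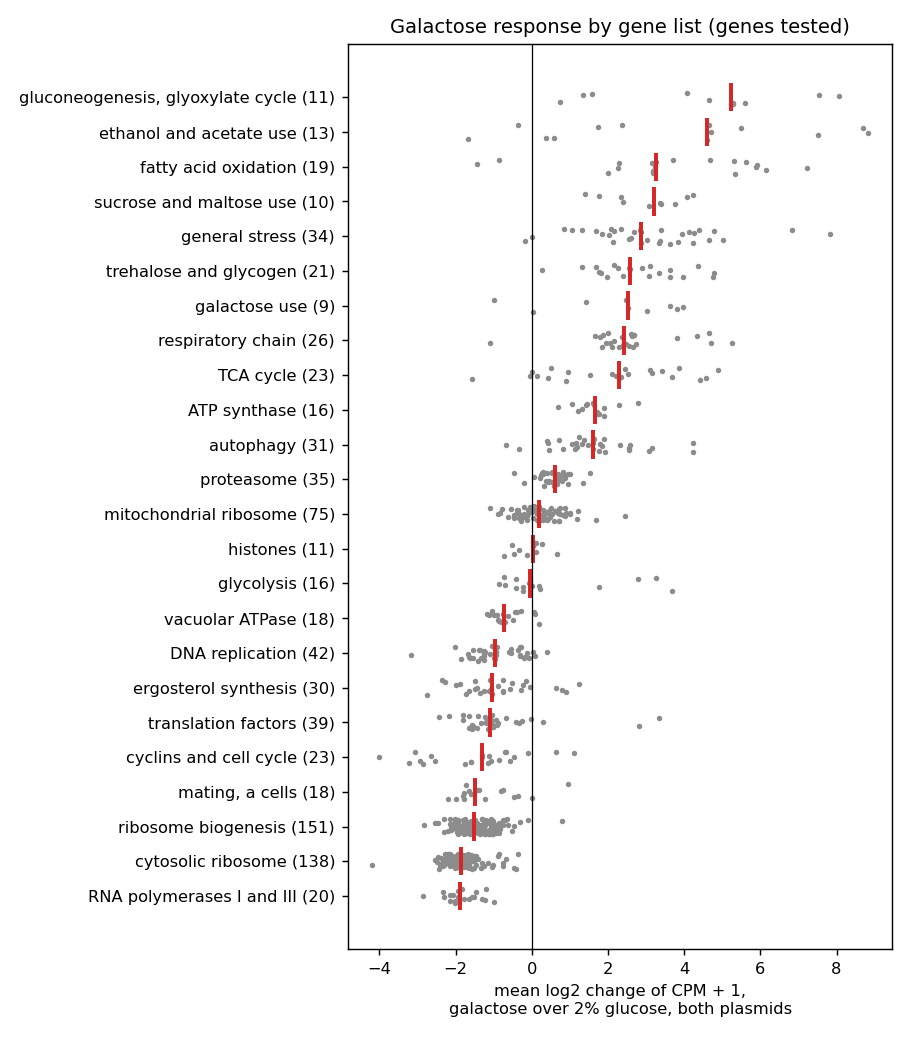
Mean log2 change of CPM + 1 of both plasmids, galactose over 2% glucose (horizontal axis), for the genes tested in 24 gene lists (rows, number of genes in brackets). Each grey point is a gene and each red bar the median of its list, and the medians run from -1.89 for RNA polymerases I and III to 5.24 for gluconeogenesis and the glyoxylate cycle.

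The 12 genes of largest rise are given here by name and belong to no single list. *ADY2*, an acetate transporter gene, stood at 1.93 CPM in control and 1.41 CPM in *PPZ1* cells on glucose, and at 1214 and 1181 CPM on galactose, a log2 change of 8.82 ± 0.14 (SE). *JEN1*, the lactate and pyruvate permease gene, went from 5.78 and 6.05 CPM to 3006 and 2703 CPM, a log2 change of 8.69 ± 0.11. In neither gene did the ranges of the sugars come near each other, which follows from choosing the largest changes. *MLS1*, malate synthase of the glyoxylate cycle, stood at 0.875 and 2.82 CPM on glucose and 769 and 660 CPM on galactose. *SFC1*, the mitochondrial carrier that exchanges succinate for fumarate, went from 2.63 and 1.21 CPM to 602 and 466 CPM, and *ATO2*, a relative of *ADY2*, from 2.10 and 3.43 CPM to 636 and 714 CPM. *POT1*, the thiolase of peroxisomal fatty acid oxidation, had 3 reads in control cells on glucose against 1188 on galactose, a scaled ratio of 610 with an exact 95% counting interval of 208 to 2964. *RGI2*, a gene known for respiratory growth, had 4 reads and 1 read in the glucose libraries, and its single read in *PPZ1* cells gives a ratio of 2579 with an interval of 462 to 101905. These low counts on glucose make the size of the rise, though not its sign, uncertain.

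The remaining 5 of the 12 had other roles. *TMA10*, whose product associates with ribosomes, stood at 25.7 and 29.3 CPM on glucose and 7345 and 5694 CPM on galactose (log2 change 7.83 ± 0.10). *HSP30*, a plasma membrane protein that restrains the proton pump Pma1, rose from 14.0 and 12.5 CPM to 2795 and 3180 CPM. *SPG4* and *SPG1*, needed for survival in stationary phase, changed by 8.45 ± 0.13 and 7.46 ± 0.16, and *ISF1*, a serine-rich protein gene, by 7.66 ± 0.13. All 12 genes rose in the same direction and at least 2-fold in both plasmids, as the rule that named them required.

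**Figure D2:**
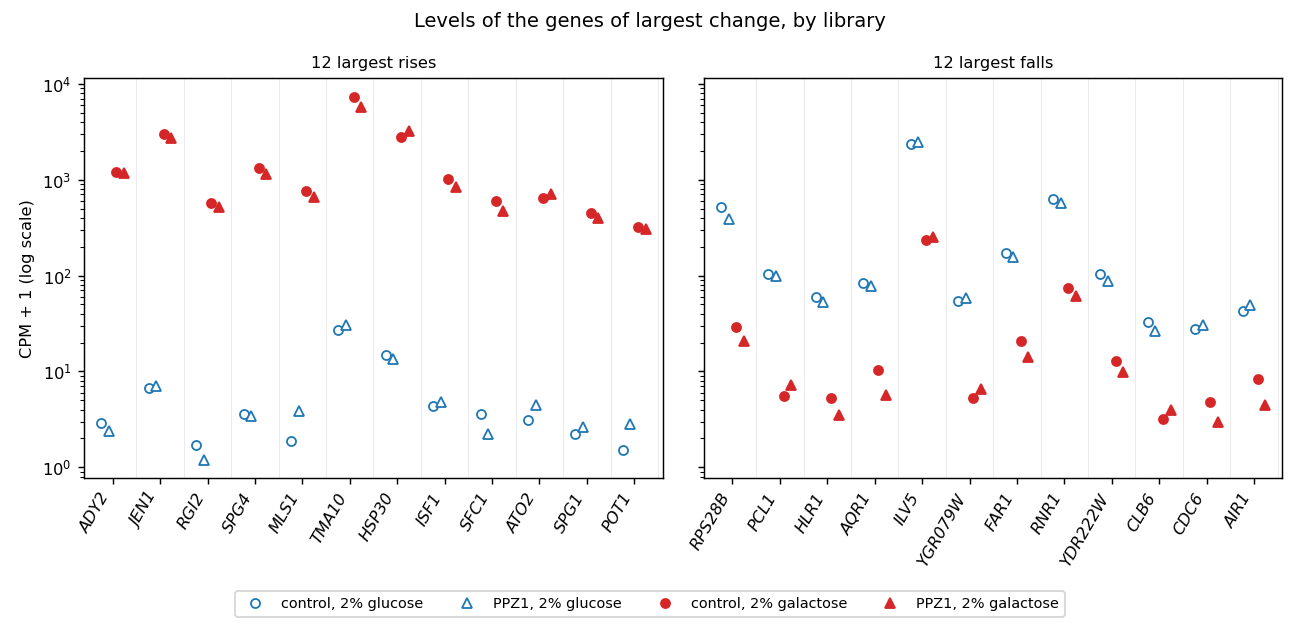
CPM + 1 on a log axis for the 12 genes of largest rise (left) and the 12 of largest fall (right), with open symbols for 2% glucose, filled for 2% galactose, circles for control cells and triangles for *PPZ1* cells, 1 library each. The genes were chosen for large changes in both plasmids, so the filled symbols lie apart from the open ones. An example is *JEN1* at 5.78 and 6.05 CPM on glucose and 3006 and 2703 CPM on galactose.

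The 12 genes of largest fall likewise came from several lists or from none. *RPS28B*, 1 of 2 copies for a protein of the small ribosomal subunit, stood at 517 and 388 CPM on glucose and 28.3 and 19.9 CPM on galactose, a log2 change of -4.18 ± 0.12. *PCL1*, a G1 cyclin of the Pho85 kinase, went from 104 and 99.1 CPM to 4.59 and 6.23 CPM (-4.01 ± 0.18). *ILV5*, an enzyme of branched-chain amino acid synthesis, went from 2353 and 2460 CPM to 234 and 252 CPM (-3.30 ± 0.10). *RNR1*, the large subunit of ribonucleotide reductase, went from 633 and 572 CPM to 72.9 and 60.8 CPM (-3.16 ± 0.10). The S-phase cyclin gene *CLB6* (-3.05 ± 0.24), the replication-licensing gene *CDC6* (-2.94 ± 0.24) and *FAR1*, an inhibitor of the cell cycle kinase in the pheromone response (-3.23 ± 0.14), fell with them. The others were *AQR1*, a membrane exporter (-3.38 ± 0.18), *HLR1*, linked to cell wall composition (-3.71 ± 0.21), *AIR1*, of a nuclear RNA surveillance complex (-2.91 ± 0.20), and the systematically named YGR079W (-3.26 ± 0.20) and YDR222W (-3.08 ± 0.16).

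The structural *GAL* genes rose in both plasmids, and other genes of the galactose pathway differed from one another. Of 9 genes in the list, 7 rose, 1 fell and 1 did not pass, while 40.5% of all genes tested rose and 41.1% fell. The median log2 change of the list was 2.52, beside -0.02 over all genes tested. *GAL1*, the galactokinase, had 58 and 49 reads on glucose and 102 and 121 on galactose, that is 10.2 and 9.89 CPM against 27.5 and 30.2 CPM (log2 change 1.44 ± 0.20). *GAL10*, the epimerase transcribed from the same intergenic region, went from 2.80 and 2.42 CPM to 20.2 and 19.2 CPM (2.52 ± 0.26). *GAL7*, the transferase, went from 2.28 and 3.23 CPM to 52.1 and 50.6 CPM (3.81 ± 0.22). *GAL2*, the galactose permease, had the largest change, from 0.875 and 2.02 CPM to 38.9 and 33.4 CPM (3.96 ± 0.25). The groups did not overlap for any of these 4 structural genes, and in galactose each stood at 52.1 CPM or less in both plasmids. Such separation was common. Of the 5397 genes tested, 2366 had both galactose values above both glucose values, and 2393 had both below. Among the regulators, *GAL3* (3.04 ± 0.20) and *GAL4* (2.46 ± 0.21) rose. *GAL80* stood at 67.9 and 73.0 CPM on glucose and 76.4 and 67.8 CPM on galactose, overlapping values with a log2 change of 0.03 ± 0.13 (limma adjusted p = 0.831), and its window holds a match to the Gal4 pattern. The phosphoglucomutases, which link galactose to glycolysis, moved apart. *PGM2*, the major one, rose from 112 and 145 CPM to 1576 and 1621 CPM, and *PGM1* fell from 149 and 143 CPM to 71.8 and 73.3 CPM. Of the 4 genes outside the pathway listed as Gal4 targets, *GCY1* (3.34 ± 0.11), a reductase, *MTH1* (3.36 ± 0.13), a repressor of hexose transporter genes, and *PCL10* (0.50 ± 0.17), a Pho85 cyclin, rose, and *FUR4*, the uracil permease, fell (-1.90 ± 0.16). The Gal4 pattern was present in the windows of 7 of the 9 pathway genes and in 2.93% of all windows of genes tested, with 4.37% among the genes at least 2-fold higher and 3.21% among those at least 2-fold lower.

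Hexose transporter genes of high affinity rose and those of low affinity did not. *HXT6* and *HXT7*, high-affinity transporters, went from 189 and 213 CPM to 7568 and 8179 CPM and from 245 and 256 CPM to 8051 and 8836 CPM. These genes are near-identical in sequence, so reads may have been divided between them and their separate values are uncertain. *HXT2* rose from 92.4 and 101 CPM to 1180 and 1153 CPM (3.58 ± 0.10), and *HXT4* by a smaller 0.82 ± 0.11. Together the 4 high-affinity genes took 0.0681% and 0.0707% of reads in glucose and 1.72% and 1.88% in galactose. *HXT5*, a transporter of slow-growing cells, went from 4.55 and 7.06 CPM to 743 and 778 CPM (6.83 ± 0.13). Of the low-affinity genes, *HXT1* fell from 328 and 295 CPM to 147 and 121 CPM (-1.22 ± 0.10), and *HXT3* stood at 564 and 538 CPM on glucose and 551 and 569 CPM on galactose, with overlapping values (0.02 ± 0.10, adjusted p = 0.818). *HXT8* to *HXT11* and *HXT13* to *HXT17* stood at 5.98 CPM or less in every library, under the minimum for the test. *HXT13*, without a read on glucose in either plasmid, had 9 and 23 reads on galactose.

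**Figure D3:**
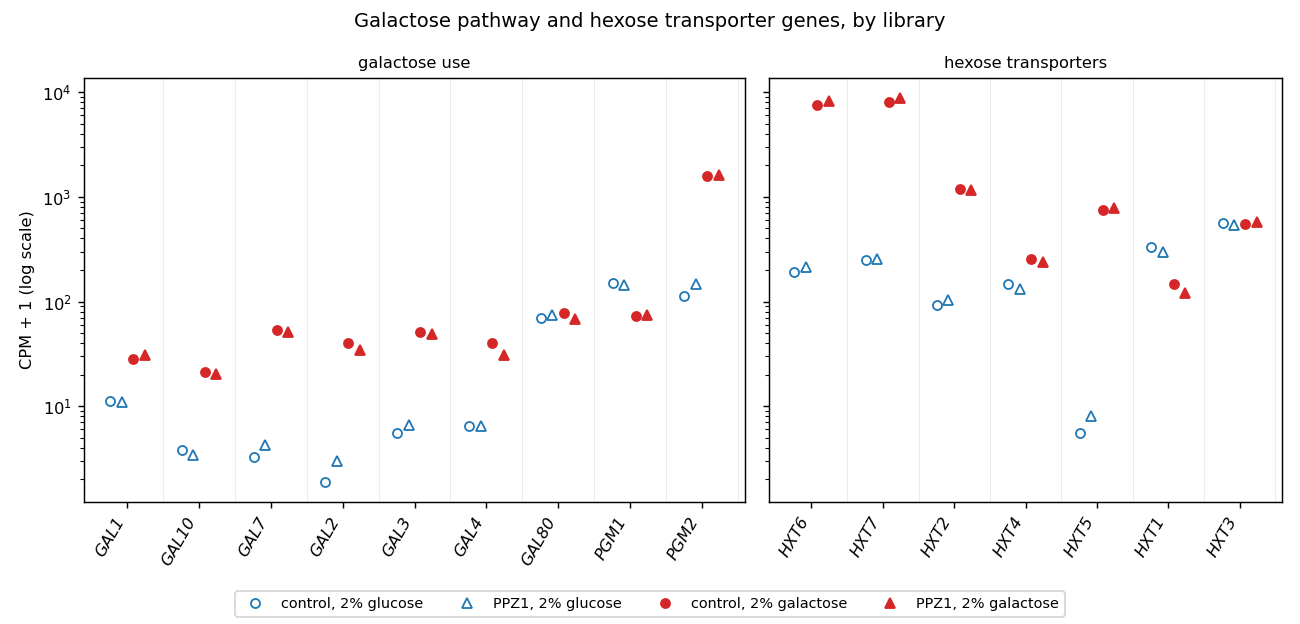
CPM + 1 on a log axis for 9 galactose pathway genes (left) and 7 hexose transporter genes (right), with symbols as for the genes of largest change and 1 library each. *HXT6* and *HXT7* reach 7568 to 8836 CPM in galactose, the structural *GAL* genes reach 52.1 CPM at most, and the values of *GAL80* and *HXT3* overlap between the sugars.

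Genes under glucose repression rose as groups. All 10 tested genes of sucrose and maltose use were at least 2-fold higher in both plasmids (median log2 change 3.22), with *SUC2*, the invertase, going from 53.6 and 54.7 CPM to 948 and 1126 CPM. All 11 genes of gluconeogenesis and the glyoxylate cycle rose (median 5.24). The largest change among them was that of *MLS1*, and *MDH3*, a malate dehydrogenase of peroxisomes that was already at 166 and 189 CPM on glucose, changed by 1.33 ± 0.10. Of 13 genes of ethanol and acetate use, 11 rose and 2 fell. *ALD4*, the mitochondrial aldehyde dehydrogenase, changed by 4.70 ± 0.10 and *ALD6*, the cytosolic one, by 1.73 ± 0.10. Of the 14 listed activators of carbon source genes, 11 rose. *CAT8* went from 4.38 and 9.28 CPM to 395 and 329 CPM, *USV1* changed by 5.07 ± 0.13, and *HAP4*, the limiting subunit of the respiratory activator, went from 55.3 and 49.4 CPM to 808 and 662 CPM. The Snf1 and repressor list was mixed, with 10 of 19 genes higher and 6 lower. *REG2*, a regulatory subunit of the phosphatase Glc7, changed by 5.52 ± 0.21 and *SIP2*, a subunit of the Snf1 kinase, by 2.56 ± 0.14, and *GLC7* itself by 0.42 ± 0.10. Of the 12 glucose-sensing genes, 6 rose, among them the sensor gene *SNF3* (2.88 ± 0.15) and *GPA2* (2.61 ± 0.12), a G protein of the protein kinase A pathway, and 3 fell. Over all genes tested 40.5% rose and 41.1% fell, so the shares that rose in these last 2 lists were not far from that background. The Mig1 core CCCCGC was present in the windows of 11.95% of the 1029 genes at least 2-fold higher, 3.73% of the 966 at least 2-fold lower and 5.63% of all genes tested.

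Oxidative metabolism rose almost throughout. Of 26 respiratory chain genes 25 rose, all at least 2-fold in both plasmids (median 2.43), and of 16 ATP synthase genes all rose (median 1.66). *QCR8*, of cytochrome bc1, went from 131 and 110 CPM to 841 and 713 CPM, and *CYB2*, the lactate dehydrogenase of the intermembrane space, changed by 4.71 ± 0.15. YDR119W-A, a small subunit of cytochrome c oxidase, went from 4.90 and 4.64 CPM to 242 and 200 CPM. The single respiratory gene that fell was *CYC1*, the main cytochrome c, from 732 and 705 CPM to 388 and 294 CPM (-1.09 ± 0.10), while *CYC7*, its other form, went from 17.3 and 17.3 CPM to 517 and 409 CPM. The promoter and terminator of pCM190 include *CYC1* sequence, and the part of plasmid transcripts in the *CYC1* values was not tested. Of the ATP synthase genes, *ATP2*, a catalytic subunit, changed by 1.64 ± 0.10 and its inhibitors *INH1* and *STF1* by 2.29 ± 0.11 and 2.80 ± 0.11. Of 23 TCA cycle genes 19 rose and 1 fell (median 2.28). *CIT1*, mitochondrial citrate synthase, went from 183 and 187 CPM to 4314 and 3621 CPM, and *IDH1*, a subunit of isocitrate dehydrogenase, from 45.9 and 42.0 CPM to 1087 and 1065 CPM. Fatty acid oxidation had 17 of 19 genes higher and 2 lower (median 3.26), with *POX1*, the first peroxisomal enzyme, at 6.15 ± 0.20 and *YAT2*, a carnitine acetyltransferase, at 5.31 ± 0.11. Of 30 peroxisome genes 23 rose and 4 fell (median 0.80), led by the import factor gene *PEX18* (4.65 ± 0.22). Mitochondrial ribosomal protein genes did not follow to the same extent. Of 75 tested, 32 rose and 14 fell, 4 were at least 2-fold higher in both plasmids, and the median was 0.19. Over all genes tested 40.5% rose, 41.1% fell and 19.1% were at least 2-fold higher in both plasmids. The share of this list that rose was thus near that of all genes.

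Glycolysis took a similar share of reads under both sugars while single isoenzymes changed. Of 16 genes 4 rose and 5 fell (median -0.06), and the list took 6.60% and 7.21% of reads in glucose and 6.61% and 8.0% in galactose. *TDH3*, the main glyceraldehyde-3-phosphate dehydrogenase, stood at 16029 and 18511 CPM on glucose and 15041 and 19716 CPM on galactose, the groups overlapping (adjusted p = 0.998), and *TDH1* rose from 238 and 329 CPM to 3646 and 3509 CPM. *ENO1*, an enolase, rose from 589 and 711 CPM to 5941 and 6526 CPM, and *ENO2*, the other form, fell from 9402 and 10269 CPM to 6591 and 8287 CPM. For pyruvate kinase, *PYK2* changed by 2.79 ± 0.12, while the main gene *CDC19* did not pass (-0.06 ± 0.12, adjusted p = 0.625). For phosphoglycerate mutase, *GPM2* changed by 2.74 ± 0.15, while *GPM1* did not pass (0.18 ± 0.12, adjusted p = 0.160). In sugar phosphorylation *HXK1* rose from 288 and 384 CPM to 6559 and 6897 CPM, *GLK1*, glucokinase, by 3.40 ± 0.10 and *EMI2*, related to it, by 3.59 ± 0.10, while *HXK2*, the hexokinase that takes part in glucose repression, fell by 0.40 on the log2 scale. In the pentose phosphate pathway *TKL1*, *TAL1* and *GND1* fell (-1.46, -0.40 and -0.75) and their counterparts *TKL2*, *NQM1* and *GND2* rose (2.95, 4.09 and 1.82). Iron-sulphur scaffold genes also diverged, with *ISU1* at 4.23 ± 0.10 and *ISU2* at -1.53 ± 0.13. *ENO2*, *PYK2*, *CDC19*, *GPM2*, *TKL1*, *GND2* and *CYC7* were named after their values were seen. *PDC1*, the main pyruvate decarboxylase, fell by 0.85 on the log2 scale, and *ADH1*, the main alcohol dehydrogenase, stood at 7059 and 7722 CPM on glucose and 6405 and 9091 CPM on galactose (adjusted p = 0.723).

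Most reserve carbohydrate and general stress genes rose. Of 21 trehalose and glycogen genes 20 were at least 2-fold higher in both plasmids and none fell (median 2.57). *GLC3*, the glycogen branching enzyme, went from 50.4 and 57.9 CPM to 1561 and 1493 CPM, *TPS1*, which makes trehalose phosphate, from 254 and 296 CPM to 1245 and 1416 CPM, and *GAC1*, a targeting subunit of Glc7 for glycogen synthase, changed by 4.74 ± 0.18. Of 34 general stress genes 32 rose and none fell (median 2.88). *HSP12*, a small membrane-associated protein, went from 578 and 828 CPM to 10005 and 11310 CPM, and *CTT1*, cytosolic catalase, from 48.3 and 72.0 CPM to 1091 and 999 CPM. Both carry several copies of the stress element in the stretches printed above. Across all windows the element was present in 57.4% of genes at least 2-fold higher, 25.1% of those at least 2-fold lower, 34.3% of all genes tested and 27 of the 34 stress genes. Of 26 genes of peroxide and superoxide defence 16 rose, 5 fell and 5 did not pass (median 0.46), while 40.5% of all genes tested rose and 41.1% fell. Among 29 heat shock and chaperone genes 22 rose and 4 fell, led by *HSP30*, *BTN2* (5.86 ± 0.10), of protein sorting, and *HSP26* (5.26 ± 0.10), a small chaperone. Of 31 autophagy genes 29 rose and 2 fell (median 1.60), with *ATG8*, the ubiquitin-like protein of the autophagosome, going from 11.2 and 16.1 CPM to 296 and 244 CPM. Of 35 proteasome genes 31 rose and 1 fell, but by little (median 0.60), and 2 of them at least 2-fold in both plasmids, one being *RPN4* (1.53 ± 0.11), the transcription factor of proteasome genes.

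Genes of protein synthesis fell as groups. Of all genes tested, 41.1% fell and 17.9% were at least 2-fold lower in both plasmids. All 138 cytosolic ribosomal protein genes fell, 128 of them at least 2-fold in both plasmids (median -1.87, range -4.18 to -0.37), and their share of reads went from 26.2% and 25.0% in glucose to 7.78% and 8.41% in galactose. *RPS22A* went from 2408 and 2341 CPM to 418 and 402 CPM, while *RPL41A* and *RPL41B*, which encode the shortest ribosomal protein, changed by -1.02 ± 0.10 and -0.85 ± 0.10. *RPL41A* and *RPL41B* encode the same protein, and reads may be divided between them. Of 151 ribosome biogenesis genes 149 fell and 1 rose (median -1.52). *NOP1*, of the small nucleolar ribonucleoproteins, went from 705 and 677 CPM to 165 and 193 CPM, and *NOG1*, a GTPase of large subunit assembly, from 294 and 296 CPM to 49.4 and 51.3 CPM. All 20 genes of RNA polymerases I and III fell, 19 at least 2-fold (median -1.89), among them *RPA12* (-2.85 ± 0.17) and *RPC19* (-2.33 ± 0.15). Of 39 translation factor genes 35 fell and 3 rose (median -1.10). *TEF1* and *TEF2*, which encode the same elongation factor, changed by -0.41 ± 0.13 and -0.33 ± 0.13, and *HEF3*, a form of elongation factor 3, rose by 3.33 ± 0.15. The PAC element was present in the windows of 77 of the 151 ribosome biogenesis genes, 7 of the 20 RNA polymerase I and III genes, 1 of the 138 cytosolic ribosomal protein genes and 5.17% of genes tested. The RRPE element was in 95, 12 and 13 of the same lists and in 542 of the 5397 genes tested.

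Cell cycle, replication and mating genes fell. Of 23 cyclin and cell cycle genes 20 fell and 2 rose (median -1.30), with the G1 cyclin gene *CLN2* at -1.75 ± 0.12 and *SIC1*, the inhibitor of S-phase kinase, rising by 1.12 ± 0.12. Of 42 DNA replication genes 34 fell and none rose (median -0.98), among them *POL30*, the sliding clamp (-2.02 ± 0.12). *RNR2* and *RNR4*, the small subunits of ribonucleotide reductase, stood at 351 to 394 and 395 to 464 CPM over the 4 libraries (adjusted p = 0.527 and 0.835), unlike *RNR1*. The MCB element was in 50.0% of the windows of replication genes and in 5.45% of those of all genes tested. Of the 23 cyclin and cell cycle genes only 2 had it in their windows, and *PCL1* did not. Histone genes were mixed, with 2 of 11 higher, 4 lower and a median of 0.04, while 40.5% of all genes tested rose and 41.1% fell. Of 18 tested mating genes of a cells 16 fell and 1 rose (median -1.49), *STE2*, the pheromone receptor, going from 592 and 559 CPM to 146 and 145 CPM and *SST2*, which ends the pheromone signal, changing by -2.19 ± 0.12.

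Lists of nitrogen and amino acid genes differed in direction. Of 26 branched and aromatic amino acid genes 19 fell and 5 rose (median -0.73). The 2 largest rises in that list, *ARO9* (6.09 ± 0.12) and *ARO10* (5.80 ± 0.14), belong to enzymes that break aromatic amino acids down. Of 13 serine, glycine and one-carbon genes 11 fell, and the single rise was *AGX1* (4.00 ± 0.14), which makes glycine from glyoxylate. Of 26 arginine, lysine and histidine genes 8 rose, 12 fell and 6 did not pass (median -0.21), while 40.5% of all genes tested rose and 41.1% fell. Of 31 methionine and sulphate genes 17 fell and 5 rose, *MET6*, methionine synthase, going from 1082 and 1343 CPM to 340 and 331 CPM. In purine synthesis 13 of 19 genes fell and in pyrimidine synthesis 11 of 13. In contrast, of 22 nitrogen genes 18 rose and 1 fell (median 1.69), with *PUT1*, proline oxidase, going from 7.70 and 10.3 CPM to 1166 and 1169 CPM, and *GDH2*, the glutamate dehydrogenase that releases ammonium, changing by 3.92 ± 0.10. Of 21 amino acid permease genes 11 rose and 7 fell (median 0.39), beside 40.5% and 41.1% of all genes tested, led by the proline permease gene *PUT4* (5.65 ± 0.15). Of 30 ergosterol genes 24 fell and 4 rose (median -1.05), and of 18 vacuolar proton pump genes 15 fell and none rose (median -0.72). Among 23 ion transport genes 16 rose and 5 fell, *ENA1*, the sodium pump gene, going from 86.0 and 83.3 CPM to 830 and 743 CPM. *ENA1* and *ENA2* are near-identical neighbours, and their separate values are uncertain. Of 42 cell wall genes 23 fell, 12 rose and 7 did not pass (median -0.31), while 41.1% of all genes tested fell and 40.5% rose. *SPI1*, a wall protein gene of stress and stationary phase, had the largest rise of that list at 4.77 ± 0.10.

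The responses of both plasmids ran close to each other. Across the 5397 genes the log2 changes in control and in *PPZ1* cells, which share no library, had a Pearson correlation of 0.984 and a Spearman correlation of 0.978, and 5018 genes (93.0%) had the same sign. These are values across genes, which are not replicates. The correlation was lowest, 0.954, among the 960 genes of 10 to 30 CPM and highest, 0.995, among the 595 genes of at least 300 CPM. The difference between the plasmids' log2 changes had a standard deviation of 0.27, beside a median standard error of 0.18 from read counting alone. Among the genes of at least 300 CPM these were 0.26 and 0.064, so the spread there was wider than counting error. No gene was at least 2-fold higher in one plasmid and at least 2-fold lower in the other. At least 2-fold higher in control cells and short of that in *PPZ1* cells were 212 genes, and the reverse held for 35. For falls the numbers were 101 and 169. With median-of-ratios factors the counts were 129 and 57 for rises and 164 and 98 for falls, so that the larger count for falls changed sides. The median difference, *PPZ1* minus control, was -0.11 with the authors' factors and -0.01 with median-of-ratios factors. Of the 1029 genes at least 2-fold higher, 79.5% changed less in *PPZ1* cells (medians 2.10 in control and 1.91 in *PPZ1* cells), and 62.9% did so with median-of-ratios factors (2.01 and 1.93). Of the 966 at least 2-fold lower, 48.0% changed less in *PPZ1* cells, and 65.2% with median-of-ratios factors. A response of its own for each plasmid leaves no residual degree of freedom, so no difference between plasmids was tested.

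**Figure D4:**
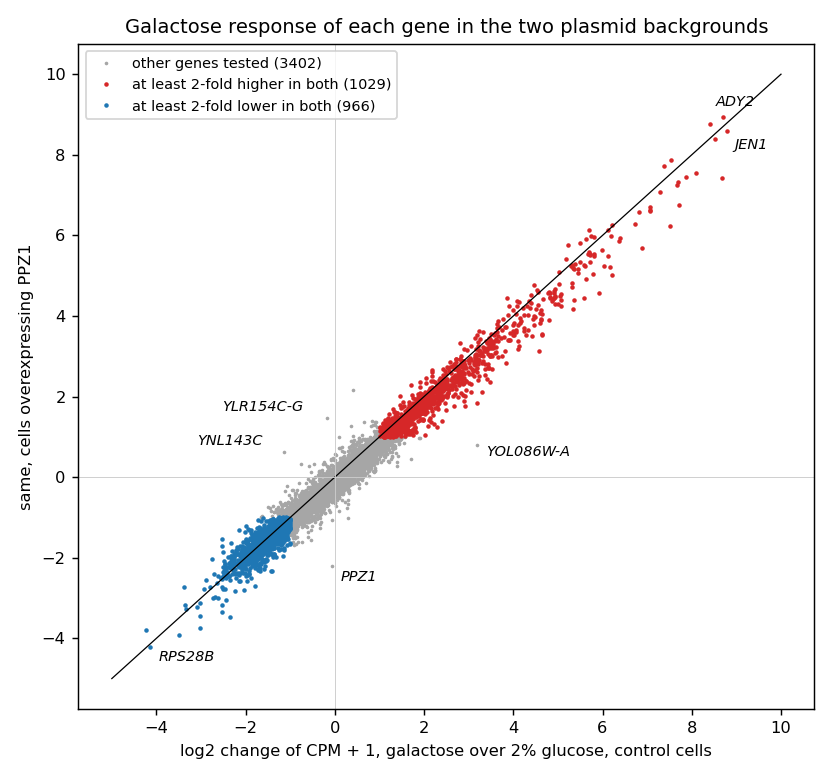
Log2 change of CPM + 1, galactose over 2% glucose, of the 5397 genes tested in control cells (horizontal) and in cells overexpressing *PPZ1* (vertical), with a line of equal change. Genes at least 2-fold higher in both (1029) are red and at least 2-fold lower (966) blue, and few points leave the line, among them YOL086W-A, *PPZ1* and YLR154C-G.

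*PPZ1* itself was among the 30 genes whose responses differed by at least 2-fold between plasmids. It stood at 78.8 CPM on glucose and 75.03 CPM on galactose in control cells, and at 12538 and 2705 CPM in *PPZ1* cells. Overexpression was thus present under both sugars, 7.30 log2 units above control in glucose and 5.15 in galactose, and the plasmid-borne transcript was lower in galactose, with a log2 change of -2.21. The mean change of -1.14 that the block fit gives for *PPZ1* describes neither plasmid. *URA3*, the plasmid marker, went the other way, from 1660 and 2346 CPM to 4116 and 5575 CPM. Of the Ppz1 paralogue and inhibitors, *PPZ2* (2.25 ± 0.13) and *VHS3* (2.52 ± 0.12) rose, as did *CAB3* (0.74 ± 0.13), a subunit of the coenzyme A enzyme to which Hal3 and Vhs3 also belong. *SIS2* stood at 74.6 and 78.5 CPM on glucose and 88.0 and 88.7 CPM on galactose (0.21 ± 0.12, adjusted p = 0.114), and its counted region overlaps YKR073C.

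Of these 30 genes, 26 had a lower log2 change in *PPZ1* cells than in control cells and 4 a higher one. In some of the 30 the changes in the plasmids had opposite signs. With median-of-ratios factors, chosen for this count after seeing the data, these were 19, all among the 26, and 7. Of the 26, 16 were at least 2-fold higher in galactose in both plasmids. Most of the 26 differed on glucose rather than on galactose. In 19 of them the glucose level was at least 1.5-fold higher in *PPZ1* cells. These 19 include *PPZ1* itself, which the plasmid carries and which was higher under both sugars. In 18 of the 26 the galactose levels of the plasmids lay within 1.5-fold of each other. The rule that picked the 26 itself favours genes that are higher in *PPZ1* cells on glucose or lower on galactose. The same counts were not made over all genes tested, so these describe the 26 only. *NCE103*, carbonic anhydrase, stood at 44.6 CPM in control and 116 CPM in *PPZ1* cells on glucose, and at 1080 and 1011 CPM on galactose, so that its log2 change was 4.57 and 3.12. *CIT2*, the peroxisomal citrate synthase, stood at 55.7 and 137 CPM on glucose and 3430 and 3268 CPM on galactose (5.92 and 4.56). *CAT8*, *MLS1*, *NQM1* and *HBN1* had the same form, with log2 changes of 6.20 and 5.0, 8.68 and 7.43, 4.65 and 3.53, and 3.18 and 1.83. The counting standard error of these differences was 0.10 for *CIT2* and 0.42 for *MLS1*, which had 5 and 14 reads on glucose. Among the others of the 26 it was 0.11 for *NCE103*, but 0.44 for *STL1*, with 0 and 6 reads on glucose. For *SIP18*, with 6 and 14 reads and named after its values were seen, it was 0.43.

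YOL086W-A had the largest difference of all. It stood at 69.3 and 52.7 CPM on glucose, and at 635 CPM in control but 92.4 CPM in *PPZ1* cells on galactose. It lies at chrXV:159173-159445 (R64) beside *ADH1* (chrXV:159548-160594) on the opposite strand, and *ADH1* was at 6405 CPM in control and 9091 CPM in *PPZ1* cells on galactose. Its high value rests on the library of control cells in galactose alone. Among the 4 genes of the other direction, YLR154C-G and *TAR1* lie in the ribosomal DNA, whose many copies make their reads uncertain. YLR154C-G stood at 2773 and 1056 CPM on glucose and 2459 and 2922 CPM on galactose, and *TAR1* at 13.5 and 5.04 CPM and 18.1 and 25.9 CPM, so the library of *PPZ1* cells in glucose is the low one for both. Without that library the log2 change of YLR154C-G was -0.50 and that of *TAR1* -0.23, the reverse of 0.65 and 1.28 with it. YNL143C stood at 23.98 and 5.65 CPM on glucose and 10.3 and 9.22 CPM on galactose, and *BIO3*, of biotin synthesis, at 13.5 and 11.7 CPM and 7.56 and 14.95 CPM. *CIN2*, a tubulin folding factor, fell less in *PPZ1* cells, by 1.53 against 2.52 on the log2 scale, a difference just under 2-fold.

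**Figure D5:**
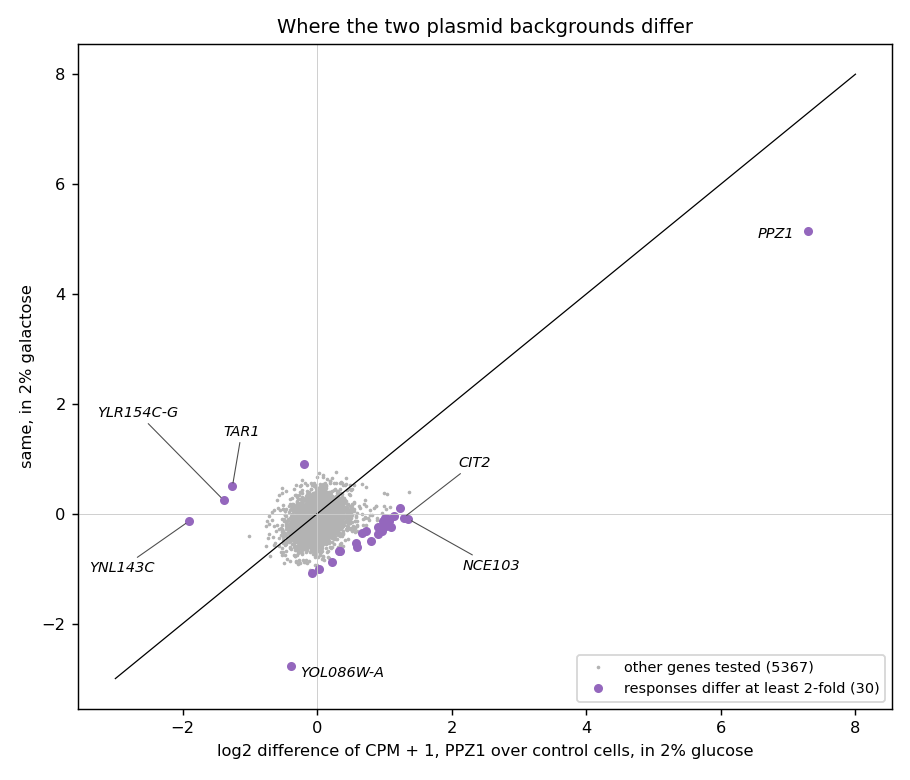
Log2 difference of CPM + 1 between *PPZ1* and control cells in 2% glucose (horizontal) and in 2% galactose (vertical) for the 5397 genes tested, with the 30 genes whose responses differ by at least 2-fold in purple and a line of equal difference. Most purple points lie to the right of 0 and near 0 on the vertical axis, YOL086W-A lies at -2.77 on the vertical axis, and *PPZ1* at 7.30 and 5.15.

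Of the genes tested 8.58% had a systematic name in both the deposited table and RefSeq, beside 10.2% of those at least 2-fold higher and 4.35% of those at least 2-fold lower. Genes within 30 kb of a chromosome end made up 4.30% of those tested, 5.93% of the higher and 1.45% of the lower. Coding length was hardly related to the change across genes, with a Spearman correlation of -0.01 in control and -0.02 in *PPZ1* cells. Of the 1995 genes that changed at least 2-fold in both plasmids, 1269 belong to none of the 56 lists.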

How the data were processed

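mRNA-Seq values of *S. cerevisiae* BY4741 were taken from 1 table of 6687 features, in which 5 lines were emptied and no column belonged to other samples. The authors isolated total RNA, made TruSeq LT libraries, aligned reads with Bowtie2 (version not given) and counted them in SeqMonk 0.32.1 over coding sequences with 50 bp to either side, on the opposite strand and without duplicates. For the largest library, of control cells in 0.25% glucose, the deposited values are read counts. For the others the authors multiplied counts by 1 factor per library, so the deposited values are a scaled signal. The factors were 1.19 and 1.83 for control cells in glucose and galactose and 1.37 and 1.69 for *PPZ1* cells, and dividing by them gave whole reads, within 0.01, for 100% of values. No source used here names the build. Of 5957 names found in R64, 5928 have the same coordinates there.

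CPM were the deposited values over the total of the largest library. The minimum was a mean of 10 CPM, and the pseudocount 1 CPM. Fold changes are on the log2(CPM + 1) scale, which understates those of low genes. Testing used limma 3.58.1 (trend, plasmid as a block, adjusted p of at most 0.05) in R 4.3.3. The block rests on the labels, since both aliquots of a plasmid came from 1 culture. The code was tested on simulated data. Alternatives were a pseudocount of 5 CPM, no minimum and one of 50 CPM, median-of-ratios scaling, no block, all 6 libraries, edgeR 4.0.16 and DESeq2 1.42.0 on the whole reads, 1 library left out, subtraction of a running median by coding length (windows of 301 genes), and folds of 1.5 and 3. Of the features, 7.58% overlap another on the same strand.

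The comparison and the gene lists were chosen with earlier results of these data known, so lists are described and not tested. Named were the 12 largest rises and falls, the 5 largest differences between plasmids in each direction, all galactose and hexose transporter genes, *PPZ1* and its partners, the markers, and in other lists described some or all of the 2 genes of highest level per coding length and the 2 of largest change. Genes named for their values outside this rule are marked where they stand.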

Additional observations from a re-analysis of the deposited data

Results flagged for a closer look

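Among the genes named, 10 had changes of opposite sign in the plasmids. Each condition has 1 library, so the difference was not tested. The log2 change in *PPZ1* cells minus that in control cells was 1.77 for YNL143C, 1.64 for YLR154C-G and 1.09 for *BIO3*, with counting standard errors of 0.40, 0.03 and 0.38. For YNL143C and YLR154C-G the plasmids lay further apart on glucose, where *PPZ1* cells were lower (5.65 against 23.98 CPM and 1056 against 2773 CPM). For *BIO3* they lay further apart on galactose (7.56 CPM in control and 14.95 CPM in *PPZ1* cells). The difference was -0.45 for *SAG1*, 0.38 for *ADH1*, -0.27 for *GAL80*, 0.18 for *TDH3*, 0.21 for *CDC19*, 0.12 for *HXT3* and 0.089 for *RNR4*, with counting standard errors of 0.24, 0.02, 0.16, 0.01, 0.02, 0.06 and 0.07. The mean change of these 7 genes, and that of YNL143C and *BIO3*, did not pass the threshold of the limma test. Among the 10, only that of YLR154C-G passed.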

How the results depend on the processing

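With a minimum of 50 CPM, which leaves fewer genes to test, 1452 genes rose and 1432 fell, beside 2186 and 2217. With 1 library left out, genes that rose and fell numbered 1130 and 1303 without control cells on glucose, 1102 and 1091 without control cells on galactose, 1361 and 1132 without *PPZ1* cells on glucose, and 1167 and 1157 without *PPZ1* cells on galactose. Those fits use the other 5 libraries, the low-glucose ones included, and assume that the lone library of a sugar varies like the others. They recovered 49.8% to 56.6% of the genes called from all 4 libraries, none with the opposite sign. Genes at least 2-fold higher in both plasmids numbered 1029, and 648 at 3-fold. Those at least 2-fold lower numbered 966, with 1565 at 1.5-fold and 367 at 3-fold. Without the plasmid as a block 2110 genes rose and 2136 fell, with all 6 libraries 1646 and 1717, with edgeR 2255 and 2271, and with DESeq2 1912 and 1878. The correlation between plasmids was 0.965 to 0.991 under the 5 alternatives that give one. With median-of-ratios factors, an alternative for these counts that was chosen after seeing the data, 7 genes rather than 4 had a response at least 2-fold higher in *PPZ1* cells than in control cells, and 19 rather than 26 one at least 2-fold lower. Genes 2-fold higher in control cells alone or *PPZ1* cells alone then numbered 129 and 57, and those 2-fold lower 164 and 98. No paired analysis by replicate number was possible because each condition has 1 library. Of 227 named genes tested, 24 to 36 no longer passed the threshold with 1 library left out. Among named genes past the threshold, 3 changed direction, and the cause was not tested. Without *PPZ1* cells on glucose the log2 change of *TAR1* became -0.23 and that of YLR154C-G -0.50, and with the coding length trend removed that of *GDH1* became -0.048. That last setting also put *GAL80*, which did not pass the threshold before, at -0.27, and *RPL41A* and *RPL41B* at 0. Depth limits genes near 10 CPM, which rest on 37.1 to 57.1 reads in the 4 libraries compared.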
